A study of Mus musculus with 7 samples.

Results

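The genes described here had no count in any of 3 DMSO libraries and were counted in each of 4 Pracinostat libraries. The libraries were made from macrophages of glioblastomas grown in mice. A table row was taken when its count was 0 in all DMSO libraries, at least 1 in every Pracinostat library, and at least 20 when summed over the Pracinostat libraries. This rule found 82 of 25571 rows. The counts themselves chose these genes, so their values below are a description without a test, and the difference between the groups in these genes supports nothing further.

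The cells were sorted on CD11b, an integrin chain of myeloid cells, out of T387 glioblastomas grown in the brains of NSG mice, a strain that lacks T, B and NK cells. Pracinostat mice were dosed by mouth with 30 mg/kg, 4 times a week for 3 weeks from day 7 after implantation, and DMSO mice received the same solvent without drug. The labels also give 3 mg/kg for the prepared drug, and they call the samples biological replicates without naming animals, so the spread is that between these samples. The 7 libraries held 10142753 to 16950597 counts, and levels below are in CPM, the count as a share of the scaled library total. All 15 macrophage and microglia markers on the list used were counted in every library, at 12570 to 15600 summed CPM with DMSO and 13250 to 17580 with Pracinostat. The part of tumour-cell RNA in the counts was not tested.

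Histone deacetylases remove acetyl groups from histone tails, and deacetylated chromatin is often transcribed little. Pracinostat is a hydroxamate that inhibits the zinc-dependent members of this family. Deacetylase complexes are recruited by repressors such as REST, which keeps neuronal genes off in other cells, so genes of other lineages are a commonly studied class of targets. In bulk RNA a change in the number of cells that carry a transcript cannot be told apart from a change per cell.

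The same rule was applied with other libraries required to be at 0. The labelled DMSO trio gave 82 genes, and the 34 other trios gave 11 to 94, with a median of 37. The trio of DMSO replicates 2 and 3 with Pracinostat replicate 2 gave more, at 94 genes. With 2 DMSO libraries among the silent ones the 12 choices gave 30 to 94 genes, with 1 the 18 choices gave 11 to 62, and with none the 4 choices gave 12 to 16. The DMSO trio thus ranked 2 of 35.

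**Figure D1:**
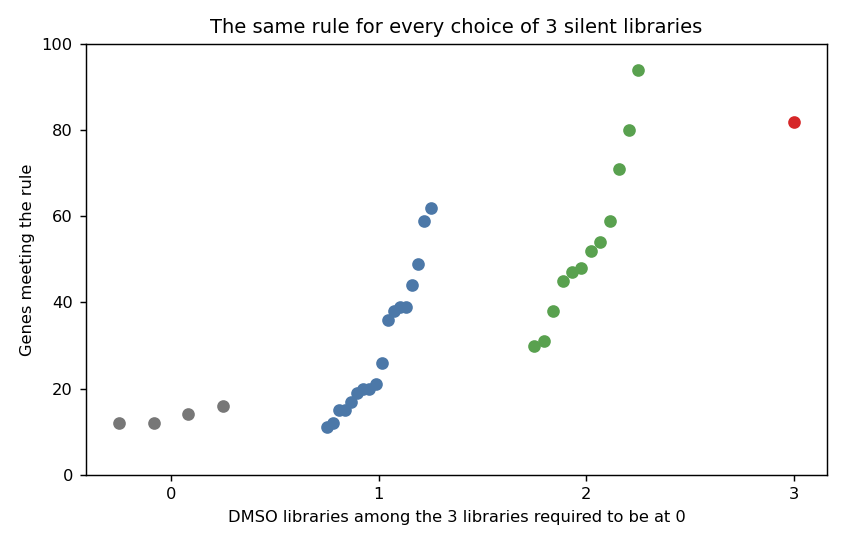
Each point is 1 of the 35 choices of 3 libraries required to hold no count, placed by how many of the 3 are DMSO libraries, with the number of genes that meet the rule on the vertical axis. The DMSO trio (red) stands at 82, below the highest of the choices with 2 DMSO libraries, at 94.

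Detection differed between libraries over the whole table. DMSO replicates 1, 2 and 3 had 18065, 16319 and 16604 rows with at least 1 count, and Pracinostat replicates 1 to 4 had 19244, 17795, 18302 and 18656. DMSO replicate 1 lay above Pracinostat replicate 2, so the groups overlapped. The means were 16996 ± 937 rows (SD, n = 3) and 18499 ± 609 rows (SD, n = 4), with a two-sided exact permutation p of 0.0857. The 4 choices of silent libraries with the most genes were also the 4 whose libraries had the fewest detected rows, in the same order, and the trio with 94 genes is made of the 3 libraries with the fewest rows.

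Zeros were common at the level of these genes. Over 7414 rows whose mean over all 7 libraries lay between 0.199 and 2.63 CPM, the range of the 82, the share at 0 was 36.6%, 49.8% and 47.8% in DMSO replicates 1 to 3. It was 28.7%, 38.7%, 34.9% and 33.9% in Pracinostat replicates 1 to 4. Only 13.5% of those rows were counted in all 7 libraries. Of 3672 rows counted in each Pracinostat library with sums from 20 to 276, the highest sum of the 82, 2303 had no DMSO zero, 963 were at 0 in 1 DMSO library, 324 in 2 and 82 in all 3. The part of these detection differences in the number of genes was not tested.

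**Figure D2:**
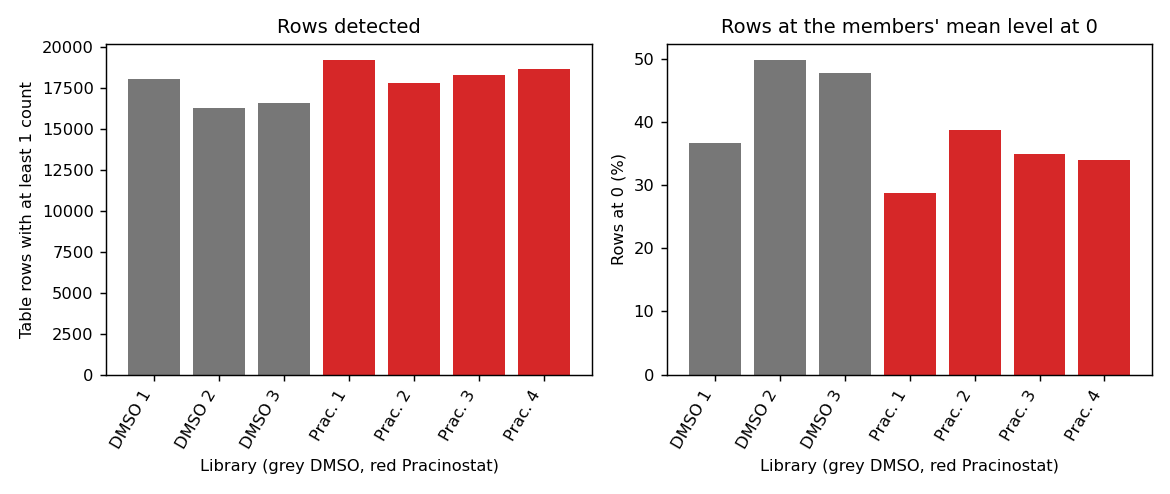
The left bars give the table rows with at least 1 count in each library, and the right bars the percentage of 7414 rows at the members' mean level that were at 0 there. DMSO replicates 2 and 3 have the fewest rows and the highest shares of zeros, 49.8% and 47.8%.

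Most of the 82 rows are gene models without an assigned name. Of the 82, 35 carry a Gm number, 16 an Ensembl identifier and 7 a Rik name, and 24 (29.3%) have an assigned symbol. Assigned symbols made up 38.9% of the 1245 genes found only by the other choices of silent libraries, 53.6% of the 3672 rows above and 61% of the table. In the GENCODE M21 annotation, 55 of the 82 could be placed by symbol: 20 are protein-coding, 13 are unproven models (class TEC), 7 antisense, 6 processed pseudogenes and 4 long intergenic RNAs.

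The counts were low and uneven. The sum over the 4 libraries ran from 20 to 276, with a median of 50, and 9 genes reached 100. Only 6 had at least 10 counts in each Pracinostat library, 23 had a library with 1 count, and 36 had more than 50% of their counts in 1 library. The highest library exceeded the lowest by a median of 8.76-fold in CPM. Pracinostat replicate 2 held the highest value for 32 genes and replicate 4 for 9, and the summed CPM of the 82 was 89.1, 113, 89.2 and 53.9 in replicates 1 to 4. The smallest library, replicate 4, was thus the lowest as a share of its counts too, and it held the lowest value for 36 genes.

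**Figure D3:**
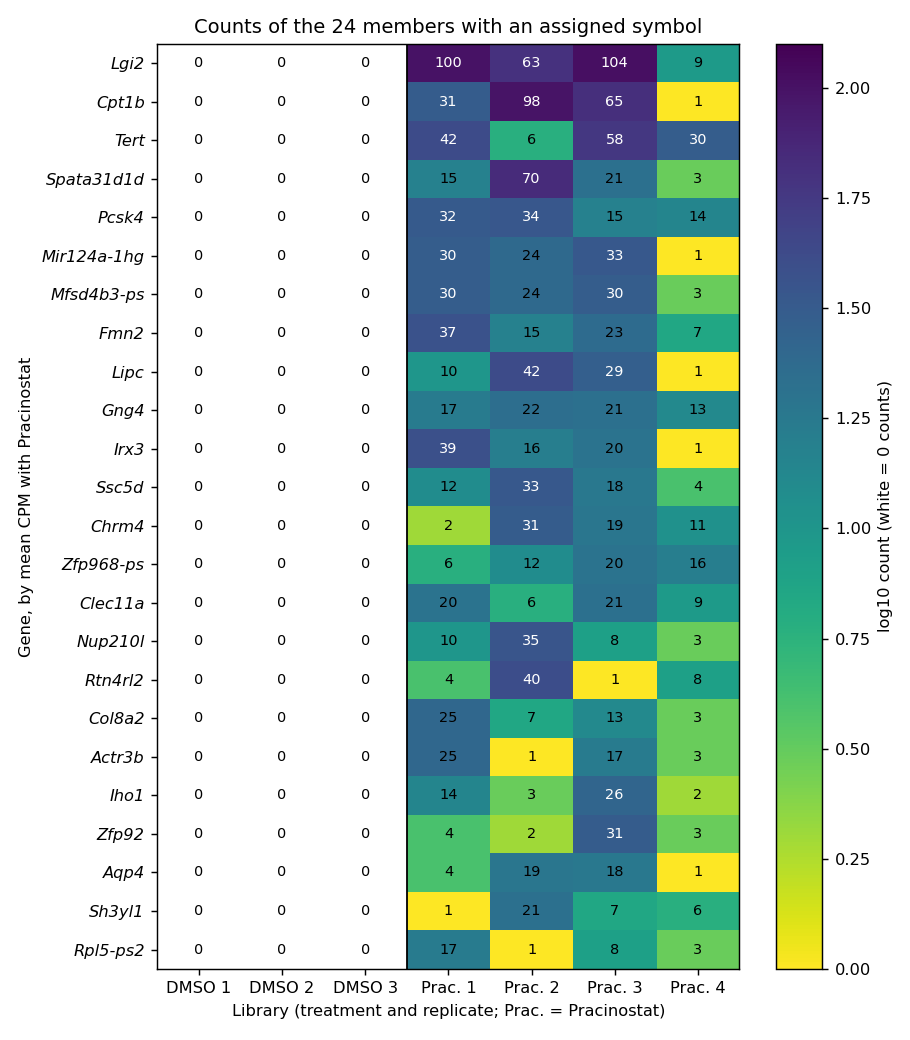
Deposited counts of the 24 genes with an assigned symbol (rows, ordered by mean CPM) in the 7 libraries (columns), with colour on a log10 scale and white for 0 counts. Lgi2 heads the list with 100, 63, 104 and 9 counts, and Pracinostat replicate 4 holds 1 count of Cpt1b, Mir124a-1hg, Lipc, Irx3 and Aqp4.

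A fold change against groups at 0 has no upper value. Bounds were therefore set against 3 counts over the DMSO group as a whole, which is 0.0736 CPM and covers counting error only. Against it the means of the 82 were at least 4.73-fold to 62.5-fold higher. CPM is not divided by transcript length, so levels are not compared between genes.

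Lgi2 had the largest sum of the 82. It is described first with other single genes known from neurons, although no gene of the set is on the neuron marker list. Lgi2 encodes a secreted leucine-rich repeat protein of the LGI family, whose members bind ADAM22-type receptors at synapses. It had 100, 63, 104 and 9 counts in Pracinostat replicates 1 to 4, a mean of 4.6 ± 2.86 CPM (SD, n = 4), at least 62.5-fold above the DMSO bound. Replicates 1 and 3 were high at 6.82 and 6.88 CPM, replicate 2 stood at 3.84 CPM and replicate 4 was low at 0.87 CPM. Its relatives did not share the pattern: Lgi1 had 12 counts in Pracinostat replicate 4 and none elsewhere, and Lgi3 had 31 in DMSO replicate 1 and 5 in Pracinostat replicate 4. Lgi4 was counted in every library, with 117, 86 and 155 counts with DMSO and 79, 425, 175 and 121 with Pracinostat, and its groups overlapped (edgeR adjusted p = 0.9998). The receptor gene Adam23 had 239, 261 and 99 counts with DMSO and 278, 362, 153 and 133 with Pracinostat.

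The RefSeq promoter window of Lgi2, at chr5:52566257-52566556 on the minus strand of GRCm38.p6, is shown with those of Tert and Spata31d1d because these had the highest means among genes with a window. Chrm4 is added as the gene on the list of REST-repressed genes. Each runs from 250 bases before to 50 after the transcript start, and capitals mark CpG dinucleotides.
Lgi2: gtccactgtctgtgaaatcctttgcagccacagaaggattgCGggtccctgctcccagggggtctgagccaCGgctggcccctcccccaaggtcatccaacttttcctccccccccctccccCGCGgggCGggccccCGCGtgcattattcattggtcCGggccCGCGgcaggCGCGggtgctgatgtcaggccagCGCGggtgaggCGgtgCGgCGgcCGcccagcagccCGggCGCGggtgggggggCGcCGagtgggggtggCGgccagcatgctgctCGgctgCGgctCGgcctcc
Tert: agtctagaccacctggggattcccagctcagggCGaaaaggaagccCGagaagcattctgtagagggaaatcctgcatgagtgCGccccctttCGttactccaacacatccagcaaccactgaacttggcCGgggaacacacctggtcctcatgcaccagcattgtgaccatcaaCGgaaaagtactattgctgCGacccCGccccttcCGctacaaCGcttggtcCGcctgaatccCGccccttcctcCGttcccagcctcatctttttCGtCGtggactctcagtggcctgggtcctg
Spata31d1d: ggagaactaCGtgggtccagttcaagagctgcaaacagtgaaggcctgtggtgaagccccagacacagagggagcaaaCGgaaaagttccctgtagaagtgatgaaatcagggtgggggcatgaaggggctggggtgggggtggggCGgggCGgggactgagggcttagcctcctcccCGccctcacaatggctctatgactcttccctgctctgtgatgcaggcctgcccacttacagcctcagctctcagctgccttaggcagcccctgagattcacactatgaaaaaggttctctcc
Chrm4: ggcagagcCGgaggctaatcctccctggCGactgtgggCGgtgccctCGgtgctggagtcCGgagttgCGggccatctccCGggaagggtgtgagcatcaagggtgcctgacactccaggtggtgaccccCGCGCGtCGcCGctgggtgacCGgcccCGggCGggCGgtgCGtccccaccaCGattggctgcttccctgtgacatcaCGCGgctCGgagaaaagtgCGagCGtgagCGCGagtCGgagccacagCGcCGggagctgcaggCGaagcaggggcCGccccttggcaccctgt
Tert lies at chr13:73626661-73626960 (plus strand), Spata31d1d at chr13:59731703-59732002 (minus strand) and Chrm4 at chr2:91921939-91922238 (plus strand). The Lgi2 window holds 27 CpG and has a GC content of 73.3%, that of Chrm4 30 CpG and 70.7%, that of Tert 15 CpG and 57.3%, and that of Spata31d1d 5 CpG and 58.3%.

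Chrm4, the M4 muscarinic acetylcholine receptor, had 2, 31, 19 and 11 counts in Pracinostat replicates 1 to 4 (1.09 ± 0.724 CPM, SD, n = 4). Replicate 1, the highest library for 20 of the 82 genes, was the lowest for this one. Its relatives were patchy in both groups, with Chrm1 at 12 counts in DMSO replicate 1 and 46 and 35 in Pracinostat replicates 1 and 2, and Chrm3 counted in 2 DMSO and 3 Pracinostat libraries. Gng4, a gamma subunit of heterotrimeric G proteins, was the most even of the genes with an assigned symbol, with 17, 22, 21 and 13 counts. That is 1.16, 1.34, 1.39 and 1.26 CPM, a highest-to-lowest ratio of 1.2. Gng3, the neuronal gamma subunit, was also at 0 with DMSO but had 14, 14, 3 and 0 counts with Pracinostat, so that 1 library kept it out.

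Mir124a-1hg is the host transcript of Mir124a-1, which encodes the neuronal microRNA miR-124, and had 30, 24, 33 and 1 counts. The host of another copy, Mir124-2hg, had 13 counts in Pracinostat replicate 3 and none in the other libraries. The table rows give the host transcripts and do not measure the microRNA. Rtn4rl2, a relative of the Nogo receptor, had 4, 40, 1 and 8 counts, 75.5% of them in Pracinostat replicate 2. Fmn2, a formin that nucleates actin filaments and is known from neurons and oocytes, had 37, 15, 23 and 7 counts. Its relative Fmn1 was counted at 332 ± 64.1 CPM (SD, n = 3) in the DMSO libraries, against 369 ± 38.9 CPM (SD, n = 4) in those of Pracinostat. Neuron markers from the list were present in both groups, with 19 of 20 in the table and summed levels of 21.5 to 46.2 CPM with DMSO and 27 to 55.1 CPM with Pracinostat. Of these, Grin1 was at 0 in all 3 DMSO libraries, and Stmn2 and Dcx were at 0 in all 4 Pracinostat libraries. In DMSO replicates 1 to 3, 13, 13 and 8 markers were counted, against 17, 14, 12 and 14 in Pracinostat replicates 1 to 4. The part of neuronal RNA in these values was not tested.

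Cpt1b and Lipc are genes of lipid metabolism. Cpt1b encodes the muscle form of carnitine palmitoyltransferase 1, which passes fatty acids to mitochondria for oxidation, and had 31, 98, 65 and 1 counts. In GENCODE M21 Cpt1b lies wholly inside Gm44502, a gene on the same strand that also spans most of the neighbouring Chkb. Gm44502 had 40, 31 and 163 counts with DMSO and 42, 4, 26 and 42 with Pracinostat, and was lowest in the library where Cpt1b was highest. Added together, the 2 genes stood at 3.15, 2.48 and 10.5 CPM with DMSO and 4.98, 6.21, 6.02 and 4.16 CPM with Pracinostat. Their means were 5.38 ± 4.45 CPM (SD, n = 3) and 5.34 ± 0.957 CPM (SD, n = 4), so the locus as a whole was not at 0 in any DMSO library and its groups overlapped. How reads were assigned between the genes was not tested. Cpt1a, the liver form, which also serves macrophages, was at 204 ± 23.3 and 180 ± 34.9 CPM.

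**Figure D4:**
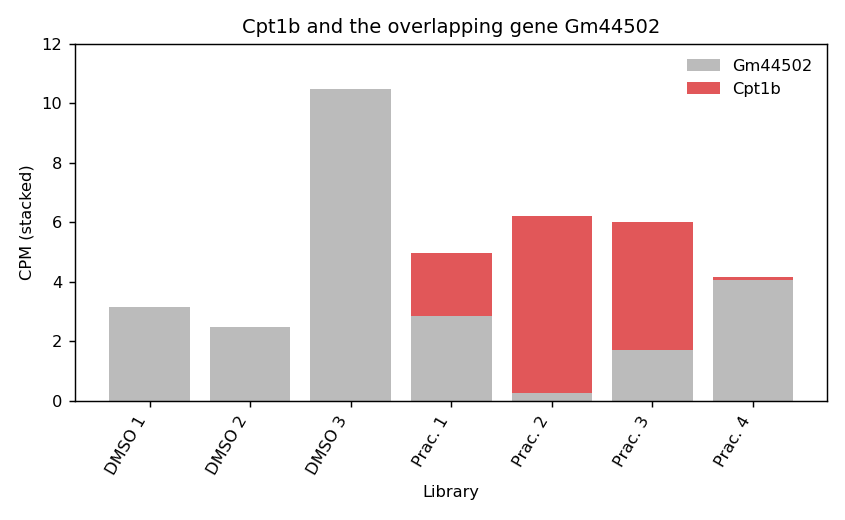
Stacked CPM of Gm44502 (grey) and Cpt1b (red), which overlap on the same strand, in each library. All DMSO counts sit in Gm44502, at 2.48 to 10.5 CPM, and the sums with Pracinostat, 4.16 to 6.21 CPM, lie within that range.

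Lipc, hepatic lipase, had 10, 42, 29 and 1 counts, with 51.2% of them in Pracinostat replicate 2. The related lipases Lipa, Lipe and Lipg were counted in every library of both groups.

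Tert, the reverse transcriptase subunit of telomerase, had 42, 6, 58 and 30 counts, or 2.86, 0.365, 3.83 and 2.9 CPM. Its mean was 2.49 ± 1.49 CPM (SD, n = 4), at least 33.8-fold above the DMSO bound, and replicate 2 was the low library. Of the other telomerase genes, looked up after Tert was known to be in the set, the RNA component Terc had 13, 0 and 0 counts with DMSO and 20, 28, 0 and 1 with Pracinostat. Dkc1, which encodes dyskerin, was at 19.8 ± 0.595 and 21.2 ± 2.58 CPM. Nop10, a small partner of dyskerin, had 50, 56 and 42 counts with DMSO and 267, 117, 95 and 56 with Pracinostat, 2.7 to 4.48 CPM against 5.41 to 18.2 CPM. Its groups did not overlap, as for 3.51% of all genes tested on the higher side, and it did not pass (log2 fold change 1.32, edgeR adjusted p = 0.9998). Gar1, Nhp2 and Wrap53 had overlapping groups.

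Single genes known from testis or meiosis were Spata31d1d, Pcsk4, Nup210l and Iho1, placed side by side here by their known roles. Spata31d1d, of a family tied to sperm formation, had 15, 70, 21 and 3 counts, 64.2% of them in Pracinostat replicate 2. Its close relatives share sequence, which makes single values uncertain: Spata31d1a had 9 counts each in Pracinostat replicates 1 and 2 and none with DMSO, while Spata31d1e was counted in every library, with 17, 60 and 68 counts with DMSO and 34, 17, 22 and 31 with Pracinostat. Pcsk4, a proprotein convertase of the testis, had 32, 34, 15 and 14 counts and was among the even ones (1.65 ± 0.571 CPM, SD, n = 4). Nup210l, a testis relative of the nuclear pore gene Nup210, had 10, 35, 8 and 3 counts, and Nup210 itself was at 50.2 ± 6.58 and 52.3 ± 6.4 CPM. Iho1, which acts in forming meiotic DNA breaks, had 14, 3, 26 and 2 counts. Its meiotic partner Rec114 had 0, 11 and 0 counts with DMSO and 38, 16, 6 and 47 with Pracinostat.

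None of the 82 is on the list of 50 germline and meiosis genes. Of the 25 in the table, 11 were at 0 in all DMSO libraries and 2 at 0 in all Pracinostat libraries. The second condition spans 4 libraries rather than 3. The 11 were each counted in 1 or 2 Pracinostat libraries, for example Ddx4, an RNA helicase of germ cells, with 28 counts in replicate 1 and none elsewhere. The number of list genes counted was 9, 9 and 8 with DMSO and 15, 11, 15 and 7 with Pracinostat, so the groups overlapped.

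Ssc5d, Clec11a and Col8a2 also encode secreted or matrix proteins. Ssc5d encodes a soluble scavenger receptor and had 12, 33, 18 and 4 counts; it overlaps Sbk2 on the other strand, which was counted in all 7 libraries. Clec11a, a secreted lectin-like growth factor, had 20, 6, 21 and 9 counts. Col8a2, a chain of collagen VIII, had 25, 7, 13 and 3 counts and was highest in Pracinostat replicate 1. That library also held 942 CPM of the 11 fibroblast and meningeal markers in the table, against 158 to 258 CPM in the other Pracinostat libraries. DMSO replicate 2 held 1302 CPM of those markers and no count of Col8a2, while its partner chain Col8a1 had 63 counts there and 110 in Pracinostat replicate 1. The other 2 DMSO libraries held 205 and 135 CPM of the markers. The part of fibroblast RNA in Col8a2 was not tested.

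Irx3, an Iroquois homeobox factor of the developing nervous system, had 39, 16, 20 and 1 counts, and Irx5, of the same gene cluster, had 6, 9, 0 and 0 and none with DMSO. Zfp92, a zinc finger gene, had 4, 2, 31 and 3 counts, so that 77.5% came from Pracinostat replicate 3. Of the 71 developmental transcription factors listed, which do not include these 2, 34 were in the table and none was among the 82, with 8 at 0 in all DMSO and 9 at 0 in all Pracinostat libraries.

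Aqp4, the water channel of astrocyte endfeet, had 4, 19, 18 and 1 counts and was the only one of the 82 on any of 19 cell type marker lists. All 12 astrocyte markers were in the table. Their summed level was 124 to 162 CPM with DMSO and 97.4 to 163 CPM with Pracinostat, and Gfap, the astrocyte filament gene, had 468, 610 and 485 counts with DMSO and 815, 718, 413 and 179 with Pracinostat. Aqp4 and Gjb6 were the 2 markers at 0 in all DMSO libraries, and Gjb6 had 6 counts in Pracinostat replicate 1 alone. The part of astrocyte RNA in the Aqp4 counts was not tested.

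Actr3b, a relative of the actin nucleation gene Actr3, had 25, 1, 17 and 3 counts, whereas Actr3 stood at 765 ± 42.3 CPM (SD, n = 3) and 759 ± 73.3 CPM (SD, n = 4) in DMSO and Pracinostat libraries. Sh3yl1, which binds membrane phosphoinositides, had 1, 21, 7 and 6 counts. The pseudogenes Mfsd4b3-ps, Zfp968-ps and Rpl5-ps2 had sums of 87, 54 and 29 counts. Pseudogenes share reads with their parent genes, so their counts are uncertain.

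Of the genes without an assigned name, the highest means were those of Gm48996, Gm6505 and ENSMUSG00000137681.1. Gm48996 had 29, 75, 22 and 20 counts in Pracinostat replicates 1 to 4 and Gm6505, a pseudogene, 46, 31, 49 and 17. ENSMUSG00000137681.1 had 29, 55, 25 and 14 counts. All 3 had at least 10 counts in each Pracinostat library, and the genes without an assigned name had sums of 20 to 146 counts.

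Some of the genes lie within or across other genes. Of the 55 placed, 23 (41.8%) overlapped another gene of the table, 7 (12.7%) on the same strand and 16 on the opposite one, and for 17 the partner was counted in all 3 DMSO libraries. Among 2912 other placed genes counted in each Pracinostat library with sums of 20 to 276, 45% overlapped another gene and 23.4% did so on the same strand. Besides Cpt1b, the same-strand cases with such a partner were Gm48996 inside Myo10, Gm44835 inside Akap13, Gm43215 inside Gsap, Gm42874 inside Gstcd and Gm44190 inside Tulp3. Akap13, a scaffold protein, had 8472, 9293 and 11396 counts with DMSO and 9252, 13620, 9928 and 7658 with Pracinostat. Gm44835 within it had 5, 53, 5 and 14, and both were highest in Pracinostat replicate 2. Gm42874 was highest there too, with 4, 36, 20 and 2 counts, but its host Gstcd, with 250, 324, 479 and 184, was highest in replicate 3. Myo10, an unconventional myosin, had 920, 870 and 1237 counts with DMSO and 1009, 1241, 933 and 413 with Pracinostat. In these total RNA libraries, reads from unspliced host transcripts can also fall on such models, and the strand setting of the counting is not given in the sources used here. Without the 6 genes that overlap a gene with DMSO counts on the same strand, 76 remain. These include the 27 genes that could not be placed and were not checked for overlap.

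Neighbours of the 82 are not fixed by the rule, though they share the libraries. The nearest tested protein-coding genes on each side of the placed genes came to 108, with Slco3a1 entered both for Gm44739 and for Gm44835. No limit was set on distance, so not all are local: Acp1 lay 0.079 kb from Sh3yl1, but Lmbrd1 lay 3814 kb from Gm7846. Of the 108, 64 (59.3%) had a positive log2 fold change, against 52.3% of the 15822 genes tested, and their median was 0.05 against 0.02. Without DMSO replicate 1 the medians were 0.03 and 0.04. By edgeR 0 of the 108 passed, as did 0% of all genes. At an unadjusted p under 0.05, 6 were higher and 2 lower, where the shares over all genes were 2.81% and 1.37%. Groups did not overlap for 5 on the higher side and 3 on the lower, beside 3.51% and 2.59% of all genes.

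Gm37833 lies between 2 of these neighbours, Bcl2a1a and Bcl2a1b, which encode near-identical proteins of the BCL2 survival family and share reads. Gm37833 had 72, 44, 6 and 1 counts in Pracinostat replicates 1 to 4. Bcl2a1a was at 17.3, 5.68 and 18.3 CPM with DMSO and at 57.5, 45.5, 28.8 and 20.6 CPM with Pracinostat, in the same order over those 4 libraries as Gm37833. Bcl2a1b was at 167, 146 and 178 CPM with DMSO and at 248, 267, 213 and 202 CPM with Pracinostat, an order that differs in replicates 1 and 2. For both the groups did not overlap, and neither passed (log2 fold changes 1.47 and 0.51, edgeR adjusted p = 0.9998 for each). This pair was singled out after its values were seen.

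Promoter composition was a property the rule did not use. RefSeq windows were at hand for 20 of the 82 genes, and the first in the RefSeq table was used for each gene. Their median GC content was 59% and 13 (65%) had an observed-to-expected CpG ratio over 0.6. The share over 0.6 was 42.8% for 439 genes of the other choices, 58.1% for 1648 other genes counted in each Pracinostat library with sums of 20 to 276, 70.9% for genes tested and 36.4% for all 27025 windows. The share in the set, from 20 genes only, was thus above that of the other choices and of all RefSeq windows, and below that of the genes tested. Against the 1648 genes at the same level the difference was small. The median ratio was 0.652 in the set and 0.660 in those genes.

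**Figure D5:**
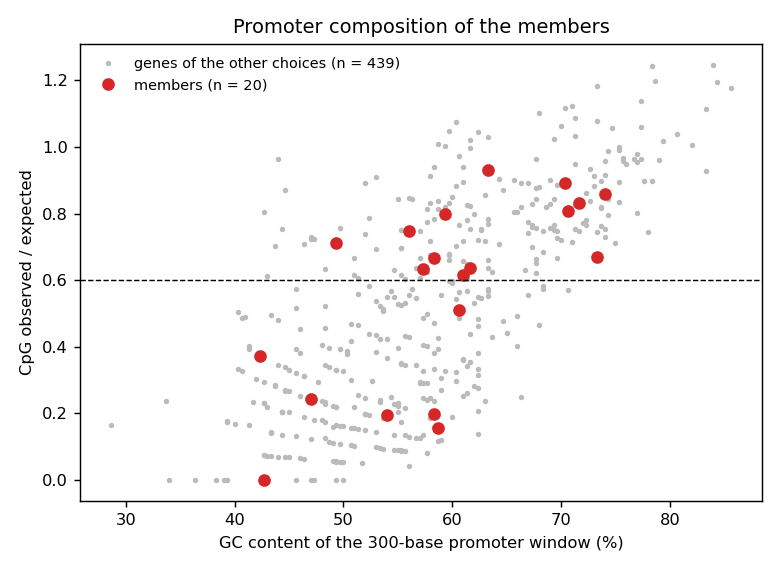
GC content (horizontal) and observed-to-expected CpG ratio (vertical) of the promoter window for 20 members (red) and 439 genes of the other choices of silent libraries (grey), with a dashed line at 0.6. Of the 20 members, 13 lie above the line.

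Short motifs were searched on both strands of these windows. The GC box GGGCGG occurred in 14 of 20, including Lgi2, Tert, Spata31d1d and Chrm4 above, against 55.1% of the 1648 windows at the same level and 35.9% of all. With every listed window of a gene searched, 17 of the 20 held it, and no background share was taken in this way. CCAAT occurred in 8 (39.3% and 37.9%) and TATAAA in 1, that of 2610035D17Rik (8.13% and 14.2%). None held the E-box CACGTG (7.95% and 7.24%) or TGACGTCA, the cAMP response element (2.97% and 1.88%). TTCAGCACC, the left part of the REST element, was in none and is rare in all windows (0.359%). These matches describe letters in a window of 300 bases and no binding.

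Gene lists were described by counts, with the genes of the set left out. A low-count gene can reach the minimum count of the fit through the Pracinostat libraries alone. The shares over all genes were not matched for level, so the numbers below are not read as a trait of a list. On the list of 50 REST-repressed neuronal genes, 46 were in the table and Chrm4 was 1 of 7 at 0 in all DMSO libraries. The other 6 were each at 0 in at least 1 Pracinostat library. Stmn2 and Stmn3 were at 0 in all 4 Pracinostat libraries, with 1 and 50 counts in DMSO replicate 1. Of the 33 tested, 22 had a positive log2 fold change, beside 52.3% of all genes, with a median of 0.40 beside 0.02, and 0 passed by edgeR at either an adjusted or an unadjusted p under 0.05. The number counted was 39, 27 and 27 with DMSO and 39, 31, 35 and 37 with Pracinostat. The list of 36 synaptic adhesion and LGI genes held Lgi2, and of its 12 others tested 9 were positive, with a median of 0.46, and again 0 passed at either p. Here 15, 10 and 14 genes were counted with DMSO and 19, 12, 15 and 22 with Pracinostat. Of the lists without a gene of the set, the neuron markers had 5 of 10 tested genes positive (median 0.31) and the germline list 6 of 9 (0.44). The developmental transcription factors had 2 of 6 (-0.19), and the Wnt, FGF and BMP ligands and antagonists 7 of 11 (0.90). Inflammatory cytokines and effectors had 16 of 21 (0.80). Of these 21, 5 were higher and 1 lower at an unadjusted edgeR p under 0.05, beside 2.81% and 1.37% of all genes.

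Of the families defined by symbol, zinc finger genes held 2 of the set among 454, and pseudogene symbols 3 among 327. Mir124a-1hg fell under both the small RNA and the host-gene pattern. Potassium, sodium and calcium channel genes held none, although 33 of 103 were at 0 in all DMSO libraries and 3 in all Pracinostat libraries. Each of those 33 thus missed the rule, either at 0 in some Pracinostat library or with a sum under 20. Olfactory and vomeronasal receptors also held none, with 42 of 70 at 0 in all DMSO and 13 in all Pracinostat libraries. These conditions span 3 and 4 libraries, and the same shares over all rows were not counted, so the numbers are not read as a trait of either family. In all, 18 of the 19 cell type lists, 4 of the 6 other lists and 8 of the 12 families held no gene of the set.

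In the fit over all genes, 35 of the 82 reached the minimum count and 47 did not. The 35 passed only through the Pracinostat libraries. By edgeR 0 of them had an adjusted p under 0.05, as did 0% of all 15822 genes, of which 661 (4.18%) had an unadjusted p under 0.05. DESeq2 called 27 genes, 0.16% of those it tested, 25 of them higher (0.148%), and 8 of the 82 were among them: Lgi2, Cpt1b, Tert, Pcsk4, Gm38342, Gm48996, Gm6505 and ENSMUSG00000137681.1. The rule used this contrast, so these counts are given without weight. At the edge of the rule, Gm15454 with a sum of 20 counts and 1700034J05Rik with 21 lay just inside. No row had a sum of 18 or 19, and the nearest outside were 1700018L02Rik, A730063M14Rik and Tomt, each with 17.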

How the data were processed

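The authors deposited a table of expected counts by gene symbol, in whole numbers without normalization. Per the submitters' processing notes, the tools were STAR and RSEM, with Trim Galore, FastQC, MultiQC and DESeq2, on build GRCm39. Annotation, versions and strand setting: not given in the sources used here. A deposited 0 can stand for an estimate that was rounded. Per the labels' protocols, libraries were made from 1 ng of total RNA with a stranded kit. Such low input limits how many molecules of a rare transcript are sampled, and counting bounds do not cover this.

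Samples were grouped by their titles, as 3 DMSO and 4 Pracinostat libraries of 10142753 to 16950597 counts. The set, its rule and the gene lists were chosen with earlier results of these data known. CPM used TMM-scaled library sizes from edgeR 4.0.16 (R 4.3.3). Differences over all genes were tested with edgeR's two-sided quasi-likelihood test (robust, filterByExpr minimum count 10, Benjamini-Hochberg adjustment over 15822 genes, threshold 0.05), with DESeq2 1.42.0 as an alternative. On counts simulated from these libraries, this test was run on 15822 genes. It found 26.9% of 134 changes of 2-fold, 67.2% of 134 changes of 4-fold and 85.6% of 132 changes of 8-fold. The changed genes were drawn only from those with an average log2 CPM of at least 2, above the level of the set. Recovery at the low counts of the set was therefore not measured, and these shares are not read as holding for its genes. Rows detected were compared by an exact permutation test over the 35 splits, whose statistic was the absolute difference of means.

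Genes were named by rule: those with an assigned symbol, the 3 others with the highest mean CPM, list genes among the set, and those next to the sum limit. Relatives, hosts and neighbours were named after the set was known. Biotypes, overlaps and neighbours came from GENCODE M21 and promoter windows from RefSeq, both on GRCm38, another build than the files' own, so no coordinates are given other than those of the printed windows. By symbol 55 genes of the set matched GENCODE and 20 the promoter table.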

Additional observations from a re-analysis of the deposited data

Results flagged for a closer look

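Of 29 sets of values over 4 Pracinostat libraries, 2 held a value far from the rest by Dixon's 95% limit, which chance passes about 1 time in 20. Zfp92 stood at 2.05 CPM in Pracinostat replicate 3, against 0.122 to 0.29 CPM in the others. Gm48996 stood at 4.57 CPM in Pracinostat replicate 2, against 1.46 to 1.98 CPM in the others. Groups of 3 were not screened.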

How the results depend on the processing

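The number of genes in the set, 82, was 88 with a sum of at least 10, 58 with 40, 59 with at least 2 counts in each Pracinostat library, 100 with a DMSO sum of up to 1, and 77 (71 of them shared) with all libraries thinned to 10142753 counts. Without the 6 same-strand overlaps found among the placed genes, a choice made after seeing the data, it was 76. It was 337 when 3 of the 4 Pracinostat libraries sufficed and 24 with assigned symbols only. Leaving out any 1 of the 7 libraries, which loosens the rule, gave 127 to 252 genes, the most without DMSO replicate 1. Of the 82, 65 still met the rule without Pracinostat replicate 2, 73 without replicate 3, 74 without replicate 1 and 78 without replicate 4.

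The count of 0 genes called by edgeR was 63 with no low-count filter (1 of the set), 27 with DESeq2 (8 of the set) and 0 to 3 when 1 library was left out, the 3 without DMSO replicate 3 and none of them of the set. With the replicate number as a block, over replicates 1 to 3, it was 4, none of them of the set. The labels do not say that equal numbers mark paired samples, and the correlation between the deviations of equal numbers was 0.0763, 0.0386 and 0.156. Between unlike numbers it ran from -0.0983 to 0.0729. DMSO replicates 1 and 3 and Pracinostat replicates 1 to 3 each correlated best with their own number. DMSO replicate 2 correlated best with Pracinostat replicate 4 (0.0729), which has no DMSO library of its number. Whether equal numbers share a batch or a pairing was not tested. The difference in rows detected and the number of neighbours with positive fold changes kept their direction and side in all 9 alternatives each, with 56 to 62 positive neighbours. Mean CPM of the 24 genes with an assigned symbol and of the 3 highest others moved by less than the replicate SD under both other scalings.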

Other observations

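With the groups exchanged, 12 genes were at 0 in all 4 Pracinostat libraries, counted in each DMSO library and had a DMSO sum of at least 15. The 2 conditions differ in the number of libraries that must be at 0, so 12 and 82 are not on one scale. Of the 12, 3 have an assigned symbol. Lrrtm3, a synaptic adhesion gene, had 42, 7 and 12 counts in DMSO replicates 1 to 3. Efs, an adaptor of Src-family signalling, had 35, 2 and 16, and Akr1c14, an aldo-keto reductase, had 13, 15 and 28. Gm6189 had 29, 29 and 28 counts with DMSO and none with Pracinostat.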
